A study of Mus musculus with 2 samples.

Results

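The cartilage collagens measured here are types II, IX, X and XI, encoded by Col2a1, Col9a1, Col9a2, Col9a3, Col10a1, Col11a1 and Col11a2. They were taken as all probe sets of the array annotated to exactly 1 of these gene symbols, which gave 11 probe sets for 7 genes among 18193 genes in all. Each probe set reads its gene with several short oligonucleotides, and some carry a suffix for oligonucleotides shared between transcripts. The comparison asked how primary osteoblasts that lack the zinc transporter Slc39a13/ZIP13 differ in gene expression from wild-type osteoblasts. Slc39a13-KO mice were homozygous for a targeted allele, made in R1 embryonic stem cells, in which a neomycin cassette takes the place of exons 6 to 8. Wild-type mice carried no targeted allele. Osteoblasts of both genotypes were released from newborn calvaria, the bones of the skull vault, in successive collagenase and dispase digestions, and the later fractions were cultured with fetal calf serum and no treatment named. Total RNA of each genotype was read on 1 Affymetrix mouse array, so no difference below has a replicate and no test between genotypes was possible. How many pups went into each culture, and of which sex, is not stated in the sources used here.

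Collagen II is the main fibril-forming collagen of cartilage, a homotrimer of the Col2a1 product. Collagen XI is a heterotrimer of the Col11a1 and Col11a2 products and a further chain, which is also made from Col2a1, and it sits in the core of the same fibrils. Collagen IX, a heterotrimer of the Col9a1, Col9a2 and Col9a3 products, lies on the fibril surface and does not form fibrils itself. Collagen X is a short network-forming homotrimer that marks hypertrophic chondrocytes, the enlarged cells of the growth plate. Col11a1 is also expressed outside cartilage, bone included. The SOX9, SOX5 and SOX6 transcription factors are known to drive most of these genes in chondrocytes, and RUNX2 takes part in the control of Col10a1.

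The 7 genes lie on 7 different chromosomes (Col2a1 on 15, Col9a1 on 1, Col9a2 on 4, Col9a3 on 2, Col10a1 on 10, Col11a1 on 3 and Col11a2 on 17), so none is a neighbour of another. The RefSeq promoter table (GRCm38.p6) matched 5 of the 7 genes, with 6 start sites. Of these, 4 windows of 250 bases before the start are printed because they belong to the gene with the largest difference (Col9a1, the upstream one of its starts), to both type XI genes and to Col10a1. Capitals mark matches to 5 motifs searched on both strands, namely the SOX cores ACAAT and ACAAAG, the RUNX core TGTGGT, the TATA box TATAAA and the GC box GGGCGG, none of which overlapped another in these windows.
Col9a1, chr1:24177360-24177609, plus strand: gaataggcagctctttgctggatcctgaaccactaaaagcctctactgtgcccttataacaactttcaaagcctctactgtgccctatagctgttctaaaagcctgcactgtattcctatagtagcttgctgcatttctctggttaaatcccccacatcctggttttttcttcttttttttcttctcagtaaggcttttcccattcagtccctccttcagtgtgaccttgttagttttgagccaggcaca
Col11a1, chr3:114030290-114030539, plus strand: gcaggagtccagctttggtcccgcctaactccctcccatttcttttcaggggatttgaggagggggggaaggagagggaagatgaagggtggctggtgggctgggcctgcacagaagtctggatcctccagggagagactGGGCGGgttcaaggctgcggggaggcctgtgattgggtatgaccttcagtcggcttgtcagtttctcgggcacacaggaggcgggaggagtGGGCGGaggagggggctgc
Col11a2, chr17:34038888-34039137, plus strand: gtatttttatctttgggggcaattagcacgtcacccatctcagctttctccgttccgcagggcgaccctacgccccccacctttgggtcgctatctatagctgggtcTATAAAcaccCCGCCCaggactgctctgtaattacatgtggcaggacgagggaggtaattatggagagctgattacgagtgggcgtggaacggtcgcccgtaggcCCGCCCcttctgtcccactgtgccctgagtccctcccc
Col10a1, chr10:34389731-34389980, plus strand: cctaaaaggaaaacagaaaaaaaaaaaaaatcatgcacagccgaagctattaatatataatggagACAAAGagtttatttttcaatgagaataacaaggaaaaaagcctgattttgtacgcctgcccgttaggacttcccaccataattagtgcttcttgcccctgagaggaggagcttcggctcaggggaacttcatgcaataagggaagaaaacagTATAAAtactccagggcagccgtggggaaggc
The Col9a1 window held none of the motifs, and neither did the window of its other start site. Col11a1 had 2 GC boxes, Col11a2 had a TATA box 143 bases before the start and 2 GC boxes, and Col10a1 had ACAAAG 185 bases and a TATA box 32 bases before the start. Col9a2 had 2 GC boxes. Across all 32851 start sites of the table, 27.7% of such windows held ACAAT, 16.5% ACAAAG, 14.0% TGTGGT, 12.4% TATAAA and 32.7% GGGCGG. No motif of this set was thus common to all 5 genes with a window, and a missing match says only that the letters are not in the window.

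The deposited values are linear MAS5 signals, scaled so that both arrays have the same trimmed mean of 500.003. The median signal was 92.6 in the Slc39a13-KO array and 78.2 in the wild-type array. Signals below the pooled 50th percentile, a floor of 85.1, were raised to it before log2 was taken, and signals under the floor have no order. A gene was called higher or lower where the mean log2 ratio of its measured probe sets was at least 2-fold with all of them on 1 side. In all, 12269 genes were measured, with a median log2 ratio of 0.11, and 57.5% of the calls were higher. This split depends on scaling: median scaling gave 38.3%, quantile scaling 47.5% and loess scaling 49.0%, and the share was 96.3% when the arrays were scaled on the poly-A control RNAs, of which 24 of 24 probe sets were lower in the Slc39a13-KO array. Over all measured genes the median was -0.11 with median and 0.94 with poly-A scaling, so every direction is relative to the bulk of genes. Slc39a13 itself had a signal of 90.4 in the Slc39a13-KO array, against 1309 in the wild-type array, which goes with the labels. Whether its 1 probe set lies in the removed exons was not established.

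All 7 collagen genes were called higher in Slc39a13-KO osteoblasts and 0 were lower. Among all measured genes, 8.01% were called higher and 5.93% lower. Of the 7 genes, 5 had a bound. Col9a2, Col9a3, Col10a1 and Col11a2 could not be called lower, as they were measured through the Slc39a13-KO array alone. For them the shares over all genes are not a like comparison. The median log2 ratio was 4.18 for the 7 genes against 0.11 for all measured genes. At a 1.5-fold threshold 7 were called higher, against 19.4% of all measured genes, and 0 lower, against 12.1%. At 3-fold, 5 were called higher, against 2.98%, and 0 lower, against 2.71%. At 4-fold the same count of 5 stood against 1.78%. Of the 11 probe sets, 10 were above the floor in the Slc39a13-KO array and 4 in the wild-type array, and the remaining 1 lay below it in both. Since the arrays read bulk RNA, more cells that express a gene and more of its RNA per cell cannot be told apart.

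**Figure D1:**
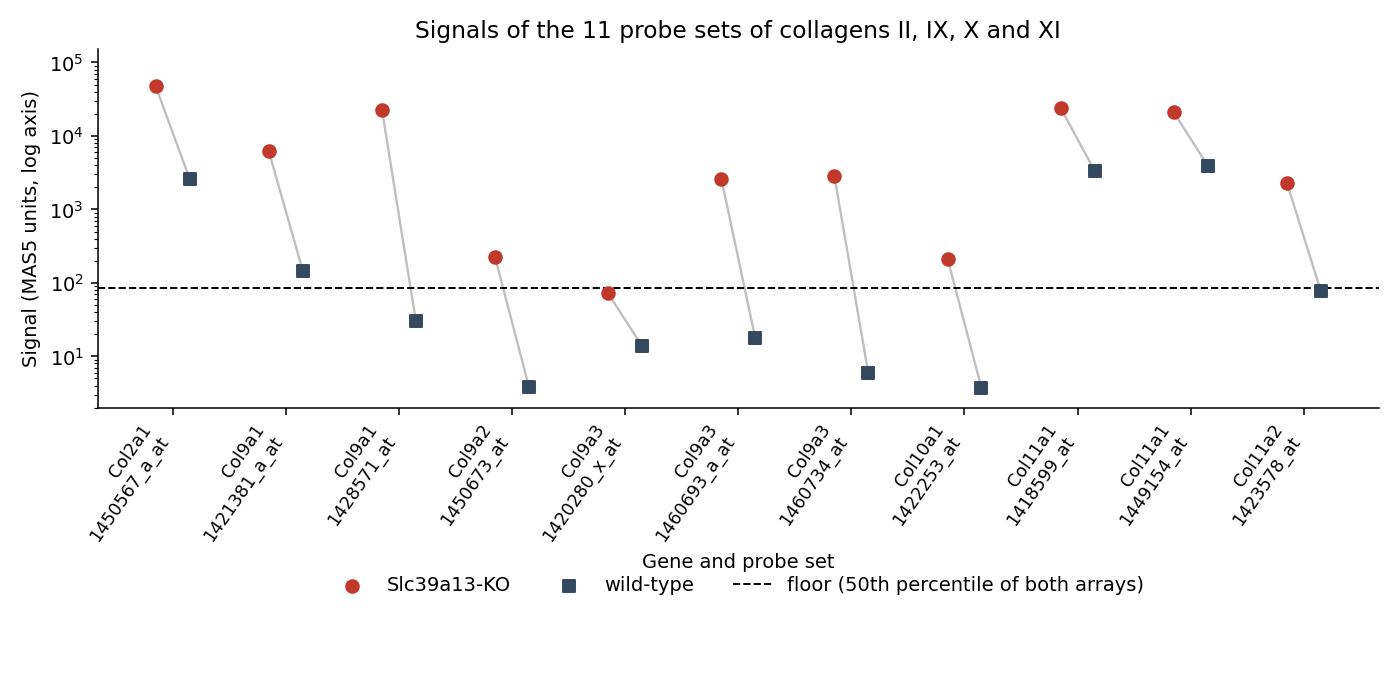
Signals of each probe set (vertical, MAS5 units, log axis) of collagens II, IX, X and XI in the Slc39a13-KO array (red circles) and the wild-type array (dark squares), joined by grey lines, with 1 array per genotype and a dashed line at the floor of 85.1. All 10 probe sets above the floor in at least 1 array have the higher signal in Slc39a13-KO, and Col9a3 probe set 1420280_x_at lies below it in both. In wild-type, only Col2a1, Col11a1 and 1 of the 2 measured Col9a1 probe sets lie above the floor.

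Only Col2a1 and Col11a1 were above the floor in both arrays with every measured probe set, so that their ratios are measured and not bounds. Col2a1, which supplies the sole chain of collagen II and a chain of collagen XI, was read by probe set 1450567_a_at. Its signal was 47019 in Slc39a13-KO and 2592 in wild-type osteoblasts, an 18.1-fold difference (log2 ratio 4.18). Wild-type cultures thus gave a Col2a1 signal well above the floor. Among genes above the floor in both arrays, 6.83% were called higher and 5.21% lower.

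Col11a1, which encodes the α1 chain of collagen XI, had signals of 24042 in Slc39a13-KO and 3372 in wild-type cells with probe set 1418599_at. The other probe set, 1449154_at, gave 21001 in Slc39a13-KO and 3954 in wild-type. Both probe sets were thus well above the floor in both genotypes and showed the same direction. Their mean difference was 6.15-fold (log2 ratio 2.62, SD 0.30 between 2 probe sets). This spread is technical, between oligonucleotide groups on the same 2 arrays, and is close to the median SD of 0.34 over all genes with several probe sets.

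Col11a2, the α2 chain of the same trimer, was read by probe set 1423578_at, with a signal of 2311 in Slc39a13-KO osteoblasts and 78.2 in wild-type. The wild-type signal lay just under the floor, which makes the difference at least 27.2-fold (log2 ratio 4.76). In wild-type cells, then, Col11a1 was clearly above the floor and Col11a2 was not. The bound for Col11a2 lay above the log2 ratios of both Col11a1 probe sets (2.83 and 2.41) by more than their spread, but it was 2.86 with a 70th percentile floor, level with the higher of them, and rests on 1 probe set.

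The type IX genes were mostly under the floor in wild-type osteoblasts. Col9a1, the α1 chain, had signals of 22698 in Slc39a13-KO and 30.2 in wild-type with probe set 1428571_at, a difference of at least 267-fold. Probe set 1421381_a_at gave 6147 in Slc39a13-KO and 146.1 in wild-type, 42.1-fold. Both showed a large difference in 1 direction but differed in size, with a mean of at least 106-fold (log2 ratio 6.73, SD 1.88 between 2 probe sets). This SD is far above the 90th percentile of 0.75 over all genes, so the size of the Col9a1 difference is uncertain. The 267-fold value is itself a bound, so the difference may exceed it. Ranked by log2 ratio, with bounds taken as values, Col9a1 stood at place 6 of the 12269 measured genes.

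Col9a3, the α3 chain of collagen IX, had 3 probe sets, of which 2 were measured. Probe set 1460693_a_at gave 2624 in Slc39a13-KO and 17.8 in wild-type. Probe set 1460734_at gave 2834 in Slc39a13-KO and 5.88 in wild-type. Their mean difference was at least 32.1-fold (log2 ratio 5.00, SD 0.079 between 2 probe sets). Both wild-type signals were raised to the floor, so this SD compares the Slc39a13-KO signals only. With no floor the log2 ratios were 7.20 and 8.91. The remaining one, 1420280_x_at, whose suffix marks oligonucleotides that may cross-hybridise, lay below the floor in both genotypes, with 71.8 in Slc39a13-KO and 13.8 in wild-type.

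Col9a2, the α2 chain, lay much nearer to the floor. Its probe set 1450673_at had a signal of 223.4 in Slc39a13-KO and 3.81 in wild-type osteoblasts, at least 2.63-fold higher (log2 ratio 1.39). The 3 chains of collagen IX were thus all called higher, but the bound for Col9a2 is small because its Slc39a13-KO signal lay only a little above the floor. How far the true difference exceeds a bound cannot be read from these values, so the 3 chains were not shown to differ in fold.

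Col10a1, the marker of hypertrophic chondrocytes, had a bound of similar size to that of Col9a2. Probe set 1422253_at had a signal of 213.8 in Slc39a13-KO and 3.74 in wild-type osteoblasts, at least 2.51-fold higher (log2 ratio 1.33). With bounds taken as values, Col10a1 ranked at place 547 and Col9a2 at place 494. Both places rest on bounds that are small because the Slc39a13-KO signals lay near the floor, so they do not show a smaller difference. Among the 100 highest log2 ratios were 4 of the 7 genes (Col2a1, Col9a1, Col9a3 and Col11a2), and Col11a1 stood at place 120. The calls of Col9a2 and Col10a1 are the ones that did not hold at a 3-fold threshold, and with a floor at the 70th percentile, a signal of 319, both genes fell below it in both arrays.

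**Figure D2:**
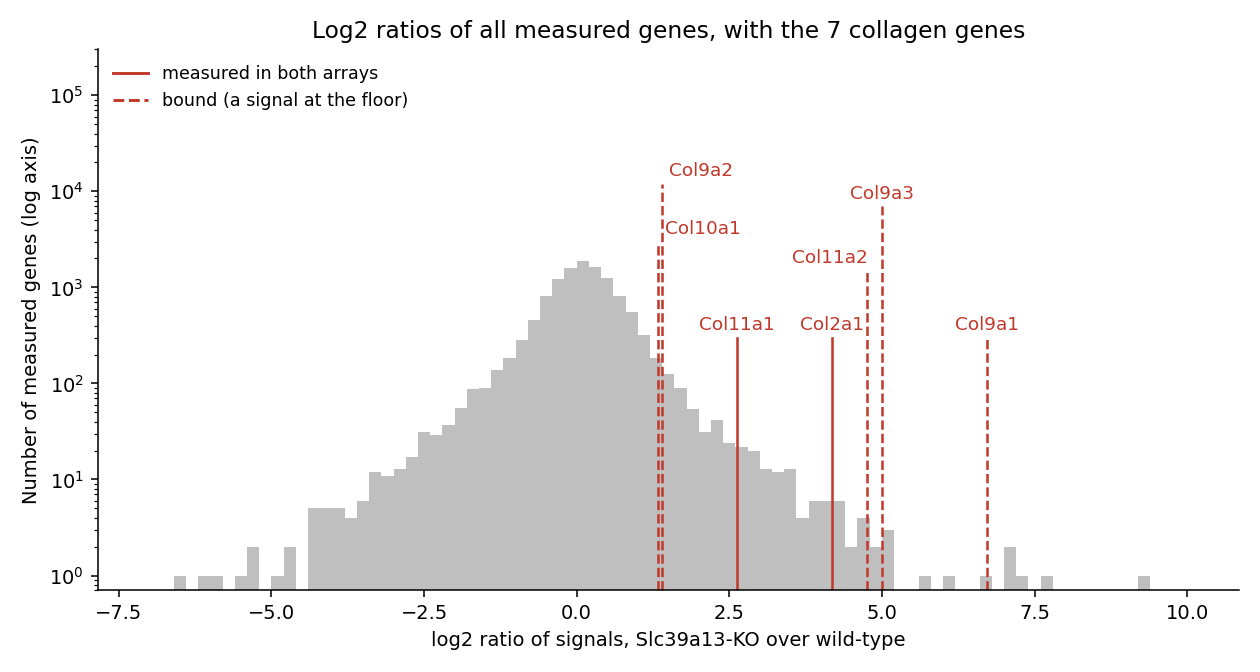
Number of measured genes (vertical, log axis) by log2 ratio (horizontal, Slc39a13-KO over wild-type), with red lines at the 7 collagen genes, dashed for bounds, where a signal was at the floor; the height of a line carries no value. Col10a1 and Col9a2 lie on the right shoulder of the distribution at 1.33 and 1.39, and Col9a1 lies in its far tail at 6.73.

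The remaining collagens did not share this pattern. Of 35 other collagen genes on the array 26 were measured, of which 2 were called higher, 7 lower and 17 not called, with a median log2 ratio of -0.19. Those called higher were Col27a1, a fibril-forming collagen also made by cartilage, and Col23a1, a transmembrane collagen. Col27a1 had signals of 1812 in Slc39a13-KO and 218.6 in wild-type, 8.29-fold higher (log2 ratio 3.05, SD 0.34 between 2 probe sets), which places it among the cartilage collagens in size. Col23a1 was at least 2.06-fold higher (log2 ratio 1.04) and was no longer called with median, quantile or loess scaling.

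Collagen V is the closest relative of collagen XI, and its chains can assemble with those of collagen XI. Col5a1 was 2.40-fold lower, with signals of 2493 in Slc39a13-KO and 5990 in wild-type (log2 ratio -1.26, SD 0.52 between 3 probe sets). Col5a2 had 12870 in Slc39a13-KO and 13036 in wild-type and was not called (log2 ratio -0.02), and neither was Col5a3, with 239.7 in Slc39a13-KO and 454 in wild-type (log2 ratio -0.92). Col5a3 was called lower with median, quantile and loess scaling and with no floor, at log2 ratios of -1.17, -1.09, -1.12 and -1.17. The genes of collagen I, the main collagen of bone, were likewise not called, with log2 ratios of -0.68 for Col1a1 and -0.14 for Col1a2. The Col1a1 probe sets disagreed, as 1 gave 28006 in Slc39a13-KO and 27133 in wild-type and the other 2093 in Slc39a13-KO and 5512 in wild-type. With loess scaling Col5a2 stood at 0.07. With poly-A scaling the log2 ratios of Col1a1, Col1a2, Col5a2 and Col5a3 turned to 0.35, 0.63, 1.00 and 0.10, while that of Col5a1 was -0.24.

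The other collagens called lower were Col3a1 of type III (5.16-fold), Col18a1 of basement membranes (3.84-fold), Col4a5 of the collagen IV network (2.65-fold), Col7a1 of anchoring fibrils (3.17-fold), Col15a1 (at least 3.18-fold) and Col19a1 (at least 3.06-fold). Col3a1 had signals of 2687 in Slc39a13-KO and 13876 in wild-type, with an SD of 1.21 between probe sets on the log2 scale. The log2 ratios ran from -2.37 for Col3a1 to -1.41 for Col4a5. With poly-A scaling these and Col5a1 kept log2 ratios below 0, but of all the other collagens 2 were called lower (Col3a1 and Col19a1) and 8 higher, whereas the 7 cartilage collagens were called higher with each of the 4 other scalings.

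**Figure D3:**
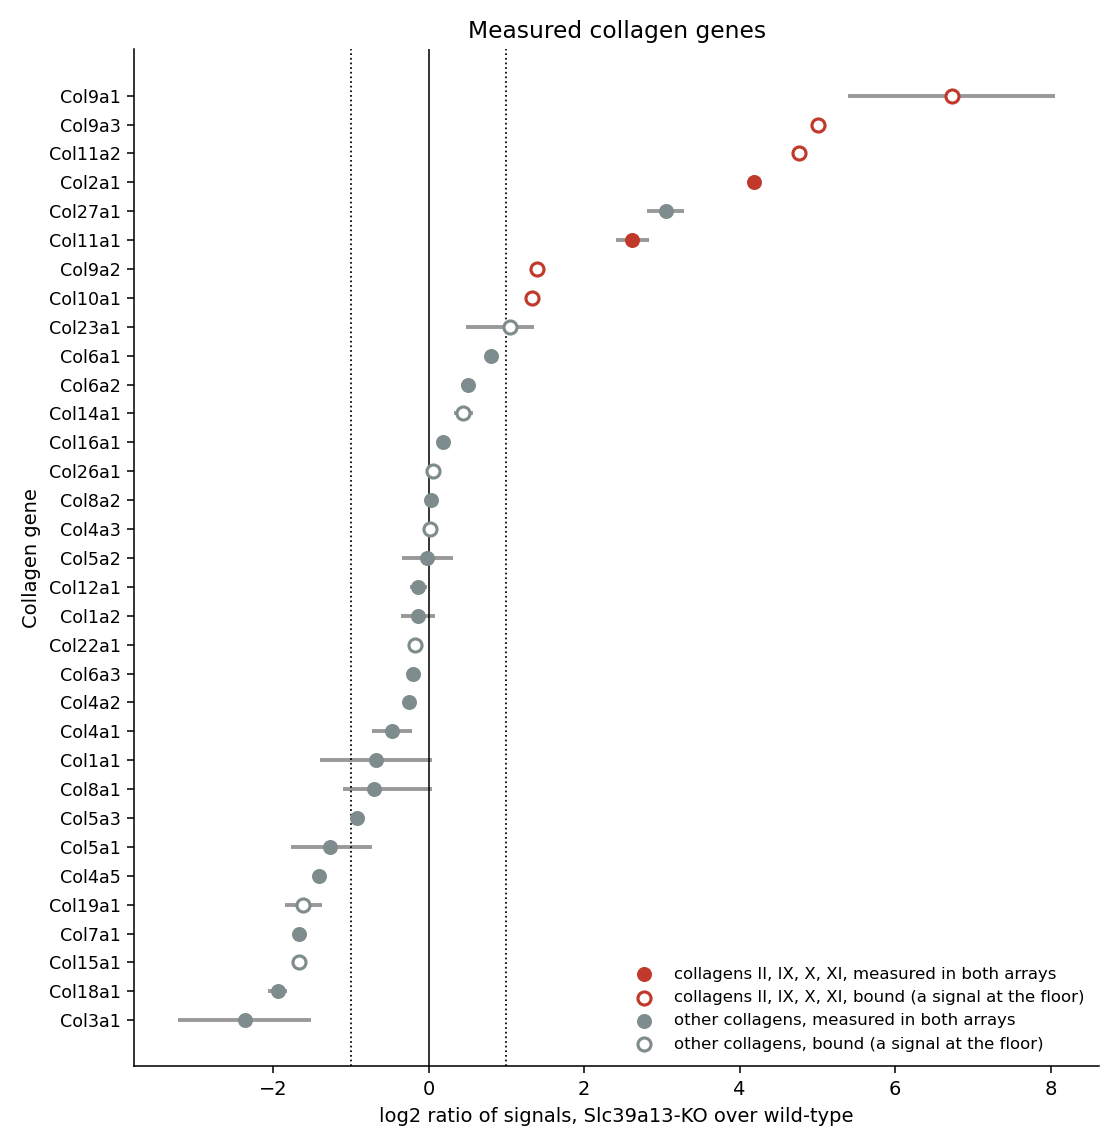
Log2 ratio (horizontal, Slc39a13-KO over wild-type) for every measured collagen gene (vertical), with points at each gene's mean over its probe sets, bars for its lowest and highest probe set, open points where a signal was at the floor, and dotted lines at 2-fold. The 7 cartilage collagens (red) all lie right of the upper dotted line, with Col27a1 of the other collagens among them, and Col3a1 lies lowest at -2.37.

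Other genes of the cartilage matrix were higher alongside these collagens. Of 24 such genes on the array 18 were measured, with 13 higher, 1 lower and a median log2 ratio of 2.93. Over all measured genes 8.01% were higher and 5.93% lower. Of those called higher, all but Matn4, Comp and Fmod were measured through the Slc39a13-KO array alone. They could not be called lower, and for them these shares are not a like comparison. The largest differences were for Cnmd (chondromodulin) at 52990 in Slc39a13-KO, the cytokine-like protein Cytl1 at 13891, the cartilage secreted protein Mia at 11157, Acan (aggrecan) at 4456 and Matn1 (matrilin 1) at 2968, all below the floor in wild-type, and for Matn4 (matrilin 4), with 17123 in Slc39a13-KO and 130.9 in wild-type. The log2 ratio of Matn4 was 7.03, while those of Mia (at least 7.03), Acan (at least 5.71) and Matn1 (at least 5.12) were bounds. This choice by size took bounds as values, so Matn4 cannot be placed above Acan or Matn1. The gene lower was Vit (vitrin), with 261.7 in Slc39a13-KO and 2197 in wild-type, named after its values were seen.

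Regulators of cartilage genes were higher in part, with 7 of 12 measured called higher, 0 lower and a median log2 ratio of 1.65. Over all measured genes 8.01% were higher and 5.93% lower. Sox5, Barx1 and Foxa2 were measured through the Slc39a13-KO array alone and could not be called lower. Sox9, which activates Col2a1, Col9a1 and Col11a2 in chondrocytes, had signals of 3480 in Slc39a13-KO and 294.2 in wild-type, 11.8-fold higher (log2 ratio 3.56, SD 0.55 between 2 probe sets). In both arrays a further Sox9 probe set was under the floor, with 17.7 in Slc39a13-KO and 38.8 in wild-type. Since it runs the other way, Sox9 was not called with the floor at the 30th percentile (log2 ratio 2.33) or with no floor. Its partners Sox5 and Sox6 were at least 4.53-fold and at least 10.9-fold higher, each over 4 measured probe sets. For Sox5 all of these were above the floor in Slc39a13-KO only, so their shared side was fixed by the floor. For Sox6 this held for all but 1, which gave 1282 in Slc39a13-KO and 151.0 in wild-type. A Sox5 probe set under the floor in both arrays ran the other way, with 21.0 in Slc39a13-KO and 33.6 in wild-type. Sox5 was not called with a 70th percentile floor (log2 ratio 0.61) or with no floor (2.71), while Sox6 was called in both. Nkx3-2, a repressor of chondrocyte hypertrophy, lay below the floor in both genotypes.

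Genes of chondrocyte hypertrophy were set beside Col10a1. Of 16 listed genes 11 were measured, of which 3 were higher, 1 lower and 7 not called, where 8.01% of all measured genes were higher and 5.93% lower. Their median log2 ratio was 0.59, against 0.11 for all measured genes. Ihh, the hedgehog ligand of prehypertrophic cells, had signals of 73.3 in Slc39a13-KO, under the floor, and 85.8 in wild-type, barely above it, and was not called. Mmp13, the collagenase of hypertrophic cartilage, had 182.0 in Slc39a13-KO and 121.1 in wild-type and was not called (log2 ratio 0.59), and neither was the transcription factor Mef2c (log2 ratio 0.73). Pth1r, the parathyroid hormone receptor, was 5.20-fold higher, and Runx3, a partner of RUNX2 in hypertrophy, at least 2.06-fold higher, a call that Runx3 lost with median, quantile and loess scaling. Alpl (alkaline phosphatase) was at least 2.32-fold higher and Vegfa 2.73-fold lower, both named after their values were seen. With poly-A scaling 8 of the 11 were higher and 0 lower, at a median of 1.48 against 0.94 for all genes. Runx2 had no probe set named by its symbol alone.

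Markers of several cell types differed alongside the collagens. Of 15 chondrocyte markers other than collagens, 13 were measured and 12 were higher, with Snorc and Chad below the floor in both. Of those higher, only Comp, Sox9, S100b and Sox6 had a measured probe set above the floor in wild-type. The others could not be called lower. The summed signal of the list was 86166 in Slc39a13-KO and 2187 in wild-type. Its Slc39a13-KO sum came mostly from Cnmd, at 52990, and Cytl1, at 13891. All chondrocyte markers but S100b also stand in the cartilage lists above. Of 12 smooth muscle and pericyte markers 8 were lower and 1 higher, with summed signals of 22804 in Slc39a13-KO and 56095 in wild-type and none below the floor in both. With poly-A scaling 2 of them were lower and 2 higher, at a median of -0.52 against 0.94 for all genes. Of 15 macrophage and osteoclast markers 7 were higher and 0 lower, with summed signals of 7543 in Slc39a13-KO and 5085 in wild-type, and Ptprc and Itgam were below the floor in both. Those higher were Lyz2 (lysozyme), with 2146 in Slc39a13-KO and 255 in wild-type, and Adgre1, Cd68, C1qa, C1qb, Ctss and Tyrobp, which were above the floor in Slc39a13-KO only. Ctsk, which was not called, had the largest wild-type signal of this list and weighs on the sums the other way. Its signals were 2956 in Slc39a13-KO and 4227 in wild-type. Of 12 osteoblast markers, Col1a1 and Col1a2 among them, 6 were measured, with 3 higher and 0 lower, and Ibsp and Phex lay below the floor in both. Their summed signal was 58290 in Slc39a13-KO and 36156 in wild-type, but this difference came from Omd (osteomodulin, a proteoglycan of bone), with 24252 in Slc39a13-KO and 357 in wild-type. Without Omd, left out after its values were seen, the sums were 34038 in Slc39a13-KO and 35799 in wild-type. These sums come mostly from Col1a1 and Col1a2, neither of which was called. The other markers called higher were Dmp1 (at least 4.50-fold) and Alpl (at least 2.32-fold). Their signals were 383.2 and 197.4 in Slc39a13-KO, and both were below the floor in wild-type. The part of these cells in the collagen signals was not tested.

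**Figure D4:**
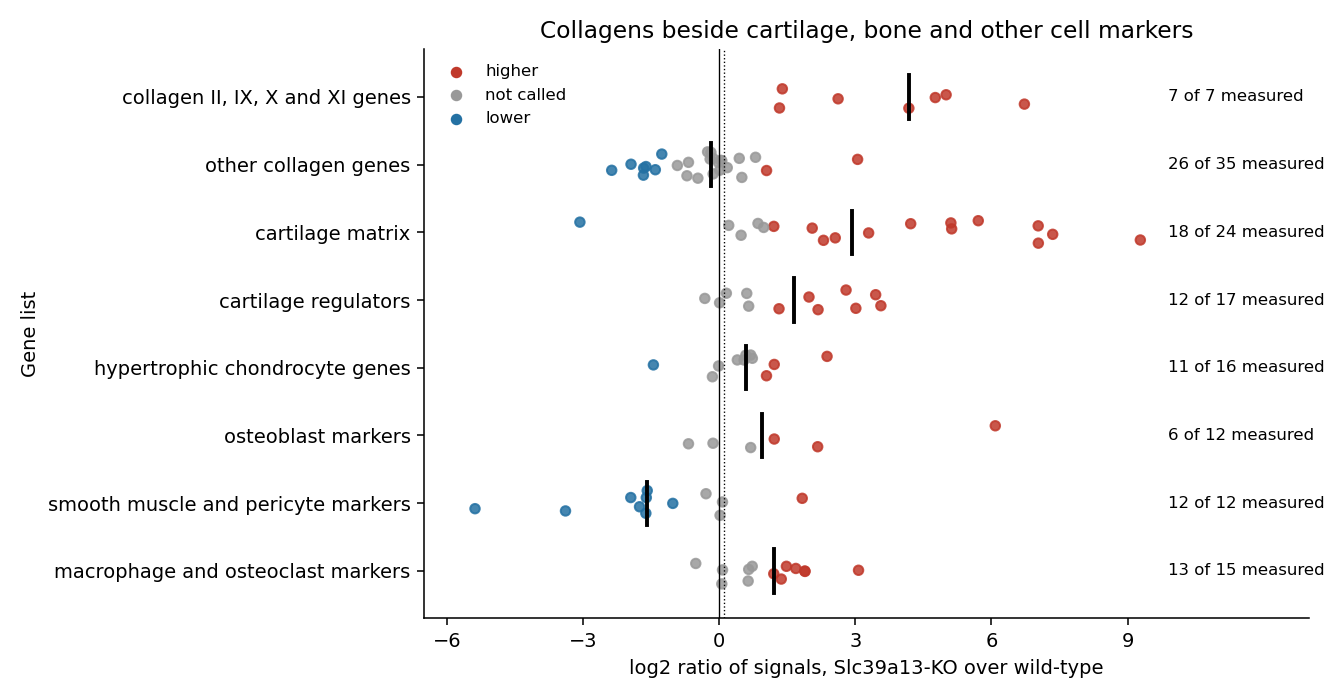
Log2 ratio (horizontal, Slc39a13-KO over wild-type) for the measured genes of 8 lists (vertical), each point 1 gene, red if called higher, blue if lower and grey if not called, with a thick black line at the list median, a thin line at 0 and a dotted line at 0.11, the median of all genes. The medians of the cartilage collagens and cartilage matrix genes lie at 4.18 and 2.93, and those of the other collagens and the hypertrophic genes at -0.19 and 0.59.

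The genes whose difference was closest to that of Col2a1 came from various families. Over the 2 arrays, among genes above the floor in both, the 5 nearest log2 ratios belonged to Nid2 (18.4-fold higher), Stard8 (18.4-fold), Dlk1 (16.1-fold), Tent5a (16.0-fold) and Abi3bp (15.2-fold), beside 18.1-fold for Col2a1. Nid2 is a nidogen of basement membranes and Dlk1 an imprinted membrane protein. With 2 arrays this likeness rests on a single ratio per gene.

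The 7 cartilage collagens held their direction under every setting that gave a value. With the reported floor that direction was fixed in advance for Col9a2, Col9a3, Col10a1 and Col11a2, which were measured through the Slc39a13-KO array alone. Col2a1 ran from 3.94 with median scaling to 5.20 with poly-A scaling, and it had no value when only probe sets without a shared-transcript suffix were kept, since its 1 probe set carries such a suffix. Col11a1 ran from 2.38 to 3.64, whereas the genes with wild-type signals under the floor moved with the height of the floor. Col9a2 and Col10a1 reached log2 ratios of 5.87 and 5.84 with no floor, where the wild-type signals of 3.81 and 3.74 are taken at face value.

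**Figure D5:**
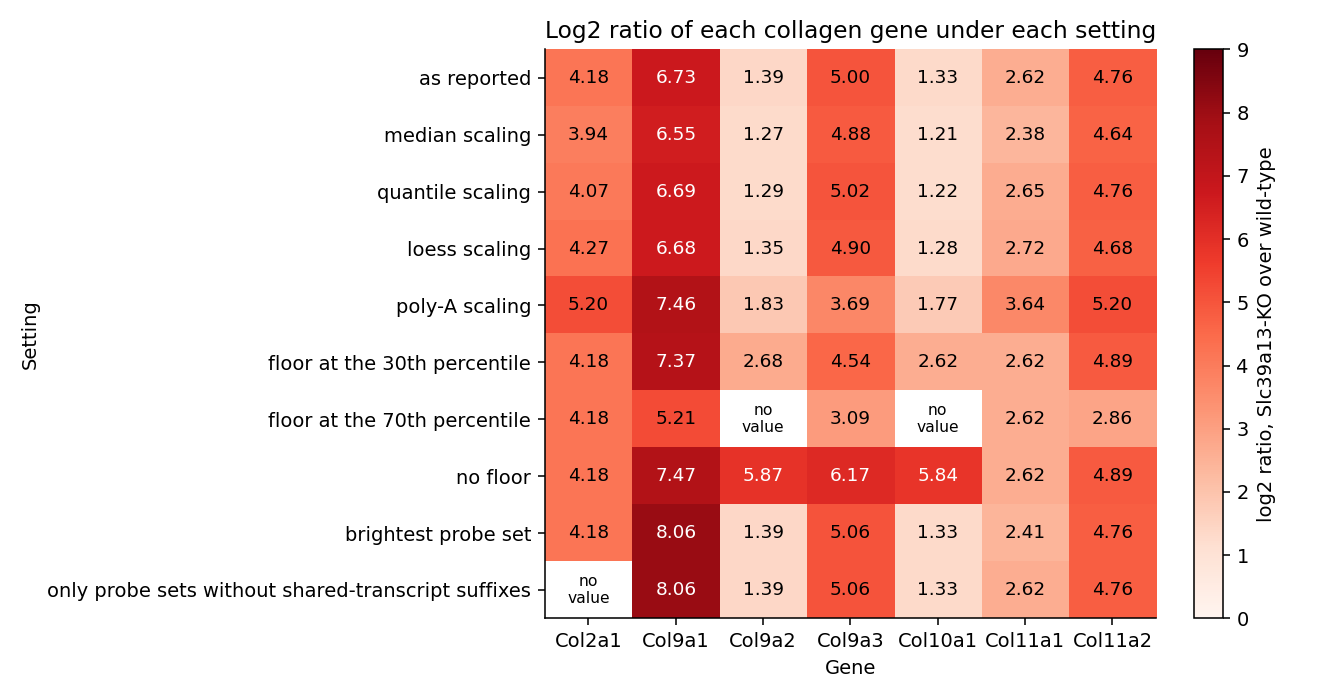
Log2 ratio of Slc39a13-KO over wild-type for each collagen gene (columns) under the reported setting and 9 alternatives (rows), with darker red for larger ratios and "no value" where no probe set was left or none was above the floor. Col2a1 and Col11a1 stay within 3.94 to 5.20 and 2.38 to 3.64, while Col9a2 and Col10a1 move from 1.39 and 1.33 as reported to 5.87 and 5.84 with no floor.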

How the data were processed

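Gene expression of primary calvarial osteoblasts was read on Affymetrix whole-genome mouse arrays, 1 of Slc39a13-KO and 1 of wild-type cells. The deposited values are linear signal intensities per probe set, which the authors computed with MAS5 per the submitters' processing notes, with no version stated in the sources used here. The study's methods name gcRMA for its own analysis. Equal trimmed means (2% at each end) in both arrays show the scaling, so signals of genes are relative to the bulk of each array.

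Of 45101 probe sets 64 were controls. The platform annotation gave 1 symbol to 34945, several to 932 and none to 9160, and only the first were used. Of these, 34741 matched RefSeq gene IDs of assembly GRCm38.p6, used for names, chromosomes and promoter windows. A floor at the 50th percentile, log2, the mean over probe sets above the floor in at least 1 array and a call at 2-fold, the threshold of the study, followed. A ratio with a signal at the floor is a bound, written as at least N-fold, and medians take bounds as values. With 1 array per genotype no p-value was computed, and the number of arrays limits the precision. Analyses used Python 3.11.15, numpy 2.4.6, pandas 2.3.3, scipy 1.17.1 and statsmodels 0.14.6.

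The members and gene lists were chosen with earlier results of these data known. Named were all 7 collagens, Slc39a13, every other collagen called, set genes of collagens I, V and XXVII, 10 set regulators and hypertrophy genes, the 6 largest differences in the cartilage lists, and the 5 genes nearest to Col2a1. Alternatives were 4 scalings, 3 floors, 2 choices of probe set and 2 thresholds.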

Additional observations from a re-analysis of the deposited data

How the results depend on the processing

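No paired analysis was possible because each genotype has 1 array, and no replicate could be left out. Over 9 alternative scalings, floors and probe set choices, the 7 collagen genes gave 60 log2 ratios, all of them above 0 and called higher. Where a gene was under the floor in wild-type, its direction was fixed by the floor. Of the 60 ratios, 44 lay within a set spread of the reported value. This spread was the SD between a gene's probe sets, or the median SD of 0.34 over all genes where only 1 was measured. All 7 genes were called higher except at 3-fold (5), with a 70th percentile floor (5) and when suffixed probe sets were dropped (6, as Col2a1 had no value), and 0 were lower in each case. Their median of 4.18 was 3.69 with poly-A scaling, 3.09 with the floor at the 70th percentile (5 genes), 5.84 with no floor and 3.69 without suffixed probe sets. Other collagens called higher, 2 as reported, were 1 with median, quantile or loess scaling, the 70th percentile floor or a 3-fold threshold, and 8 with poly-A scaling or no floor. Those lower, 7 as reported, were 2 with poly-A scaling and 4 with the 70th percentile floor. Cartilage matrix and regulator genes called lower, 1 as reported, were 2 with no floor. All genes called higher, 983 as reported, were 654 with median and 5895 with poly-A scaling, 1596, 506 and 3077 with the 30th, 70th and no floor, and 2378 and 366 at 1.5-fold and 3-fold. All genes called lower, 727 as reported, were 225 with poly-A scaling, 438 with the 70th and 2049 with no floor, and 1480 and 332 at 1.5-fold and 3-fold. Signal over background limits Col9a2, Col10a1 and every bound, in which 1 of the signals lay under the floor.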

Other observations

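Markers of neural, endothelial and notochord cells were measured in part. Of 8 neural and glial markers 5 were measured, with 0 higher and 3 lower, and their summed signal was 603 in Slc39a13-KO and 2192 in wild-type osteoblasts. Stmn2, a neuronal microtubule regulator, had 275.7 in Slc39a13-KO and 985 in wild-type, and Tubb3, a neuronal tubulin, was below the floor in Slc39a13-KO with 557 in wild-type. Of 8 endothelial markers 5 were measured, with 1 higher and 2 lower. Ptprb, an endothelial phosphatase, was under the floor in Slc39a13-KO with 1046 in wild-type (at least 12.3-fold lower). The VEGF receptor Flt1 was also lower, with 87.7 in Slc39a13-KO and 223 in wild-type, and the transcription factor Erg was higher, with 398 in Slc39a13-KO and 105 in wild-type. Pecam1, Kdr and Emcn were under the floor in both. The notochord, a midline rod that also makes collagen II, was represented by 4 markers on the array. Both arrays had Shh and Krt18 under the floor, and Krt8 and Krt19 were below it in Slc39a13-KO, with 141 and 165 in wild-type. With poly-A scaling the neural median log2 ratio was 0.01 against 0.94 for all genes, and 1 of the 5 was lower. All genes in this paragraph were picked with their values in view.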
